A study of Mus musculus with 6 samples.

Results

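Lengsin and the enzyme-related crystallins are a small group of genes that carry the crystallin name, or an enzyme fold used by the lens, without being the abundant structural proteins of the mouse lens. The group was set by a list of gene symbols, Lgsn, Glul, Cryl1, Crym, Cryz, Cryzl1, Crybg1 and Crybg3. Of these 8 genes, 6 were in the table of 13931 genes, and Crym and Cryzl1 were not analysed here. Of the 6, 5 had an average log2 CPM (log2 of the read count scaled to the size of the library) above 1, the level from which a gene could be called changed, and Cryl1 at -0.77 was below it.

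The libraries, 3 Control and 3 Celf1cKO, were made from RNA of whole lenses at birth (P0), each from its own pool of lenses. Celf1 encodes an RNA-binding protein that acts on the stability, splicing and translation of its target transcripts. Celf1cKO mice carried a germline knockout allele (Celf1lacZKI), a floxed allele (Celf1flox) and the Pax6GFPCre transgene, whose Cre becomes active in the lens placode. The GEO labels give the Control genotype as Celf1lacZKI/+, so that by the labels both groups carried the knockout allele, whereas the methods of the study describe controls with Celf1flox and no Cre as the default. Which of these applied to the Control lenses could not be settled. By the labels, the floxed allele and the Cre transgene differ between the groups together.

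Crystallins fill the lens fiber cells and give the lens its refractive power. Several were recruited in evolution from enzymes, and an enzyme that serves as a major crystallin in the lens of some animals remains an ordinary enzyme in others. Lengsin is a lens protein of the fiber cells that is related to glutamine synthetase but is not known to make glutamine, while Glul encodes the active glutamine synthetase, which joins ammonia to glutamate. Cryl1 (lambda-crystallin in rabbit) is a gulonate dehydrogenase, Cryz (zeta-crystallin in guinea pig) is an NADPH-dependent quinone reductase, and Crym (mu-crystallin in kangaroo) binds thyroid hormone and reduces ketimines. Crybg1 and Crybg3 are large proteins outside the lens crystallin families that hold the beta-gamma crystallin fold.

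Counted reads per library ranged from 40694454 to 44387151, and 3 reads, taken as the smallest level this depth can show, were worth between 0.0609 and 0.0807 CPM. Reads of the conventional crystallin genes made up between 45.8% and 46.9% of a Control library and between 34.7% and 38.5% of a Celf1cKO library. Celf1, the targeted gene (chr2:90940382-91019497, + strand), was at 9.95, 9.94 and 9.34 log2 CPM in Control libraries 1, 2 and 3 and at 8.93, 7.66 and 7.83 in Celf1cKO libraries 1, 2 and 3. These reads come from the whole gene, of which the Cre removes a single exon. Celf1cKO library 1 kept 55.9% of the mean Control CPM of Celf1, against 23.2% and 26.1% in the other two, and results are given with and without it where it stood apart. The lens fiber markers that define the tissue were abundant in every library, at a summed 175937 CPM or more.

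Lgsn was the only member called changed, and it fell in Celf1cKO lenses to between 2.36% and 14.0% of its mean Control level. A gene was called at an adjusted p-value under 0.05 over all genes (limma on log2 CPM, Benjamini-Hochberg), a log2 fold-change above 0.58 or below -0.58 and an average level above 1 log2 CPM. By this rule 7.39% of all genes were called and 2.63% were called lower, against 1 of 6 members called. For Lgsn and Crybg3, all Celf1cKO libraries lay below all Control libraries, as for 17.0% of all genes. No member was higher in every Celf1cKO library, as 19.5% of all genes were. The median log2 fold-change was -0.28 over the 6 members and -0.04 over all genes.

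**Figure D1:**
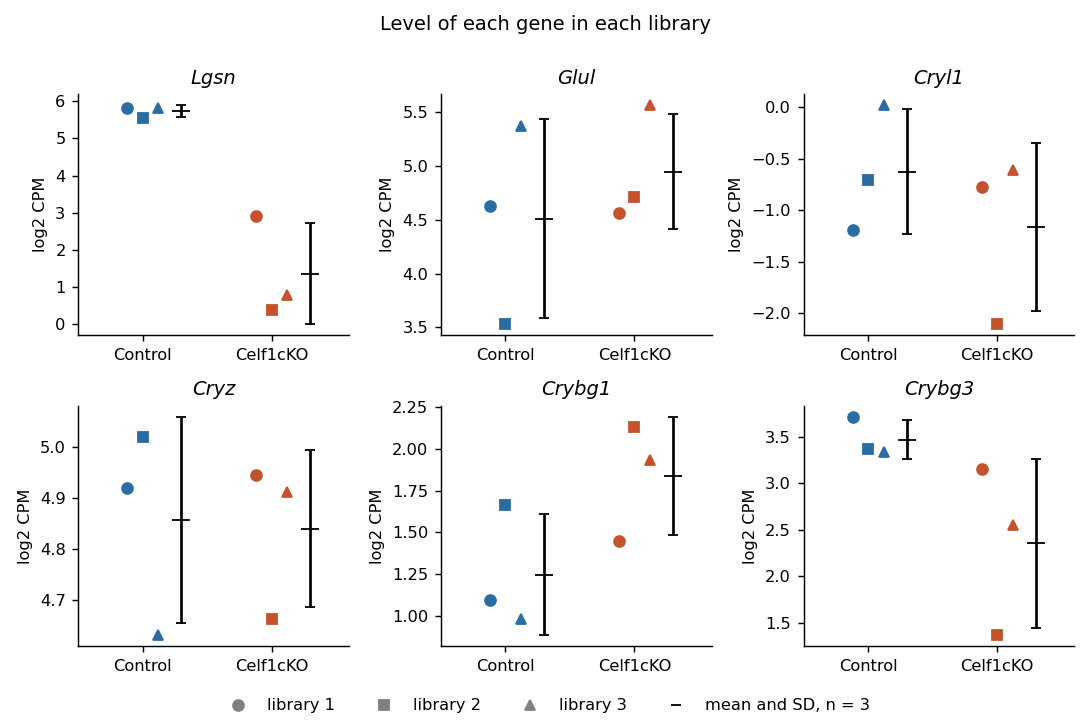
Level of the 6 members in each library, in log2 CPM (y axis), for Control and Celf1cKO lenses (x axis). Points are libraries, with a symbol for each library number, and bars are the mean and SD of 3 libraries. Lgsn lies between 5.54 and 5.83 in Control and between 0.38 and 2.91 in Celf1cKO, and Glul, Cryl1, Cryz and Crybg1 overlap between the groups.

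Lgsn (ENSMUSG00000050217) lies on the + strand of chr1:31176401-31204725 in GRCm38, with 2 annotated transcripts and 1937 exonic bases, of which 1689 are coding in its longest coding transcript. Since Lgsn is the member that changed, the 100 bases before its annotated start are shown from RefSeq (GRCm38.p6, chr1:31176301-31176400, + strand), with the letters TATAAA, those of a TATA box, in capitals.
Lgsn: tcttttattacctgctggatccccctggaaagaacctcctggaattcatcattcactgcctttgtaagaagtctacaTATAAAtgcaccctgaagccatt
The motif began 23 bases before the GENCODE start of the gene and 57 bases before its RefSeq start, which lies further downstream. All 6 members matched RefSeq promoters, 9 in all, and among their windows of 300 bases TATAAA was found only in that of Lgsn, reading both strands, as in 13.6% of 32851 promoters. Neither TGCTGAC (a MAF half-site, in 4.67% of promoters) nor TGACTCA (an AP-1 site, in 5.20%) was found in the 9 windows. These motifs were chosen after the expression values were known, and a match of letters is not evidence of binding.

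Lgsn stood at 56.2, 46.5 and 56.9 CPM in Control libraries 1, 2 and 3, from 2152, 1730 and 2242 reads. In Celf1cKO libraries 1, 2 and 3 it stood at 7.45, 1.26 and 1.66 CPM, from 320, 61 and 82 reads. The groups did not overlap, and the Celf1cKO libraries differed more among themselves than the Control libraries did, with library 1 the highest. Relative to the mean Control CPM, the Celf1cKO libraries kept 14.0%, 2.36% and 3.13%. All of these counts were well above the depth limit of 3 reads.

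Mean log2 CPM of Lgsn was 5.73 ± 0.16 (SD, n = 3) in Control and 1.35 ± 1.36 (SD, n = 3) in Celf1cKO. The log2 fold-change was -4.37 with a standard error of 0.59 and a 95% interval from -5.76 to -2.99, which is 20.7-fold lower (limma, adjusted p = 0.0106). An exact permutation test of the 6 values, two-sided, gave p = 0.1, the smallest that 3 libraries against 3 allow. Of all genes, 5 had a lower log2 fold-change, and none of those was called. They were the Y-linked genes Eif2s3y, Kdm5d, Uty and Ddx3y, between -6.26 and -4.71, and Ccdc69 at -4.63, whose average level was below the threshold. Levels of Y-linked genes depend on the sex of the pooled animals, which the sources used here do not give. The groups may therefore differ in sex as well as in genotype, and the part of sex in the group differences was not tested. Without Celf1cKO library 1, the fall in Lgsn was -5.15 (limma, adjusted p = 0.000368). Leaving out Control library 2 gave -4.47 and leaving out Celf1cKO library 3 gave -4.09, with limma adjusted p-values of 0.0531 and 0.0654 that miss the threshold. In those same fits only 1 gene in the table was called.

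**Figure D2:**
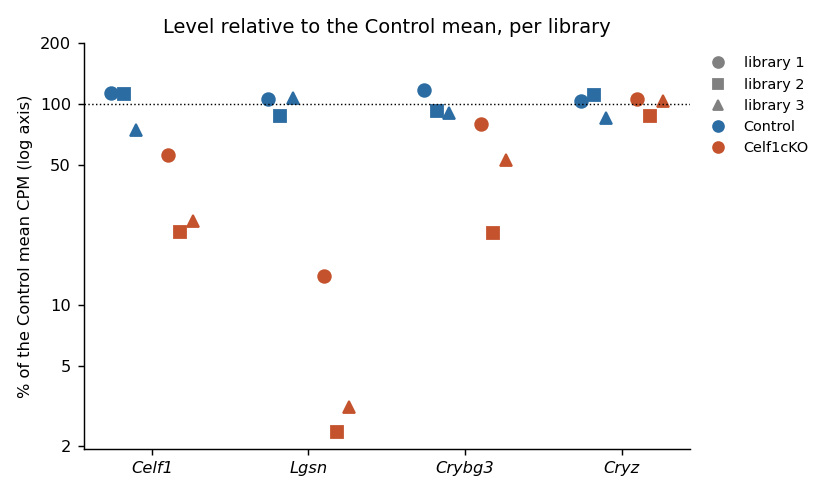
Level of Celf1, Lgsn, Crybg3 and Cryz in each library as a percentage of the mean Control CPM of that gene (y axis, log scale), with genes on the x axis and a symbol for each library number. The dotted line marks 100%. The Celf1cKO libraries lie at 14.0%, 2.36% and 3.13% for Lgsn, at 79.5%, 22.8% and 52.5% for Crybg3 and at 55.9%, 23.2% and 26.1% for Celf1.

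Markers of lens fiber cells, the cells that make lengsin, moved in the same direction. Of 13 fiber markers in the table, 6 were called lower and none higher, and their summed level was between 240125 and 269685 CPM in Control and between 175937 and 192341 CPM in Celf1cKO. The called fiber markers were Lctl (log2 fold-change -2.04), Dnase2b (-2.81), Bfsp1 (-1.47), Gja3 (-1.13), Crygd (-0.99) and Fgfr3 (-0.66). With the replicate number as a block, 5 were called lower, without Crygd (limma, adjusted p = 0.0549). Dnase2b is the nuclease that clears fiber cell nuclei, Bfsp1 is a beaded filament protein and Gja3 is a gap junction connexin. Of 10 epithelial markers, Foxe3, Pdgfra and Sparc were called lower and Fzd6 higher, with sums between 2454 and 2807 CPM in Control and between 1324 and 1971 in Celf1cKO. The part of fiber or epithelial cell numbers in the fall of Lgsn was not tested, and in whole lenses fewer cells of a type and less RNA per cell cannot be told apart.

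The genes whose levels followed Lgsn most closely over the 6 libraries were Slc6a11, a GABA transporter (Pearson r 0.999), Dnase2b (0.997), Ahsa2, Tmem106c and Ermap (0.996 each). Slc6a11, Dnase2b, Ahsa2 and Ermap were called lower, with log2 fold-changes of -1.18, -2.81, -1.24 and -2.45. Tmem106c was at 4.44, 4.39 and 4.41 log2 CPM in Control and at 4.21, 4.07 and 4.11 in Celf1cKO, a difference of -0.28 that was not called (limma, adjusted p = 0.109). Among the members and the targeted gene, r with Lgsn was 0.963 for Celf1, 0.871 for Crybg3, 0.526 for Cryl1, 0.173 for Cryz, -0.362 for Glul and -0.852 for Crybg1. These values describe 6 libraries that fall into 2 groups, so that a difference between the groups alone can give a strongly positive or negative r.

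Glul, the enzymatically active relative of lengsin, did not pass the test. The gene (ENSMUSG00000026473) lies on the + strand of chr1:153899944-153909723. It was at 4.63, 3.53 and 5.38 log2 CPM in Control libraries 1, 2 and 3, from 946, 428 and 1632 reads. In the Celf1cKO libraries it was at 4.57, 4.72 and 5.57, from 1016, 1275 and 2330 reads. The groups overlapped, library 3 was the highest in both, and Control library 2 was the lowest of all. Mean log2 CPM was 4.51 ± 0.93 in Control and 4.95 ± 0.54 in Celf1cKO (SD, n = 3 each). The log2 fold-change was 0.44 with a 95% interval from -0.65 to 1.52 (limma, adjusted p = 0.563), and it became -0.052 without Control library 2.

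Glul is also a well known marker of Muller glia, the supporting cells of the retina, so the retina markers are given beside it. Summed over 9 retina and Muller glia markers, the level was 22.3, 18.5 and 44.2 CPM in Control libraries 1, 2 and 3 and 18.3, 9.26 and 19.0 CPM in the Celf1cKO libraries. None of the 9 was called, and Crx, Nrl and Pou4f2 of the list were not analysed here. In this sum library 3 was the highest and library 2 the lowest of each group, and library 3 was also the highest of each group for Glul. The part of retinal RNA in the spread of Glul was not tested.

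The relatives Lgsn and Glul were compared within each library, which no scaling of libraries can change. Lgsn minus Glul was 1.18, 2.01 and 0.46 on the log2 scale in Control libraries 1, 2 and 3 and -1.66, -4.34 and -4.79 in the Celf1cKO libraries. Before correction for length, Lgsn was thus above Glul in every Control library and below it in every Celf1cKO library. The means differed by -4.81, and an exact permutation test, two-sided, gave p = 0.1, the smallest possible. The other pair of relatives, Cryz and Cryzl1, was not compared, so that there was no second p-value to adjust for.

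Since the RNA-binding protein encoded by Celf1 is known to bind GU-rich elements, the longest annotated 3′ UTR of each member was read for TGTTTGT. It was found in Glul alone, in 1 of 6 members, against 30.0% of 13111 genes with an annotated 3′ UTR. Both Glul sites are shown with their neighbouring bases (GENCODE M21, transcript Glul-201), the motif in capitals, since they are the only matches among the members.
Glul, bases 1135 to 1141 after the stop codon: acagaattgccTGTTTGTttcaatgtctcc
Glul, bases 1335 to 1341 after the stop codon: agttttctggtTGTTTGTgtcggcagcggg
In Lgsn neither annotated 3′ UTR held the motif. The 3′ UTR of Lgsn-201, the transcript with the longest coding sequence, has 195 bases, and that of Lgsn-202 has 1333 bases, most of which are coding in Lgsn-201. Reading for each gene only the transcript with the longest coding sequence, a choice made after seeing the data, the motif was again in Glul alone of the 6 members, against 26.6% of 12919 genes. With the looser TGTNTGT, where N is any base, 3 members had a match, Glul with 3, Crybg1 with 2 and Crybg3 with 2, as did 59.5% of genes. A match describes letters in the sequence, and the absence of one says nothing of the protein.

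Of the recruited enzymes, Cryz did not change detectably and Cryl1 was close to the lower end of the table. Cryz (ENSMUSG00000028199, chr3:154596711-154623182, + strand) was at 4.92, 5.02 and 4.63 log2 CPM in Control and at 4.94, 4.66 and 4.91 in Celf1cKO libraries 1, 2 and 3. The groups overlapped over a narrow range, from between 973 and 1480 reads per library. The log2 fold-change was -0.02 with a 95% interval from -0.34 to 0.30 (limma, adjusted p = 0.950), and its sign was not stable, since it was 0.21 with libraries scaled by their total reads. Of all members, Cryz had the narrowest interval.

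Cryl1 (ENSMUSG00000021947, chr14:57274993-57398529, - strand) was at -1.19, -0.71 and 0.02 log2 CPM in Control libraries 1, 2 and 3, from 15, 21 and 38 reads. In the Celf1cKO libraries it was at -0.78, -2.11 and -0.61, from 23, 9 and 30 reads. The groups overlapped, and Celf1cKO library 2 was the lowest. With so few reads the log2 fold-change of -0.54 had a 95% interval from -1.76 to 0.69 (limma, adjusted p = 0.525), and no difference was detectable at this depth. It was -0.07 without Celf1cKO library 2, -0.22 without Control library 3, -0.82 without Control library 1 or Celf1cKO library 3, -0.18 with log2(CPM + 1) and -0.23 after quantile normalization, and in none of these fits was it called.

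The genes of the beta-gamma crystallin fold differed in opposite directions, and neither was called. Crybg3 (ENSMUSG00000022723, chr16:59490775-59600979, - strand), which is known to bind protein kinase A, was at 3.71, 3.36 and 3.33 log2 CPM in Control and at 3.15, 1.37 and 2.55 in Celf1cKO libraries 1, 2 and 3. Reads numbered 500, 381 and 394 in Control and 379, 123 and 287 in Celf1cKO. The groups did not overlap, and Celf1cKO library 2 was the lowest. Mean log2 CPM was 3.47 ± 0.21 in Control and 2.36 ± 0.91 in Celf1cKO (SD, n = 3 each). The log2 fold-change was -1.11 with a 95% interval from -2.09 to -0.14, but after adjustment over all genes it did not pass (limma, adjusted p = 0.124). Without Celf1cKO library 1 it was -1.51 and was called (limma, adjusted p = 0.0273), and without Celf1cKO library 2 it was -0.62 and was not (limma, adjusted p = 0.188).

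Crybg1 (ENSMUSG00000019866, chr10:43950636-44148853, - strand), also known as absent in melanoma, was at 1.09, 1.66 and 0.98 log2 CPM in Control libraries 1, 2 and 3, from 80, 116 and 76 reads. In the Celf1cKO libraries it was at 1.45, 2.13 and 1.93, from 115, 211 and 186 reads. Library 2 was the highest in both groups, and the groups overlapped. The log2 fold-change was 0.59 with a 95% interval from -0.07 to 1.25 (limma, adjusted p = 0.206). Same-numbered libraries, which the study does not describe as pairs, differed by 0.35, 0.47 and 0.95, each higher in Celf1cKO.

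**Figure D3:**
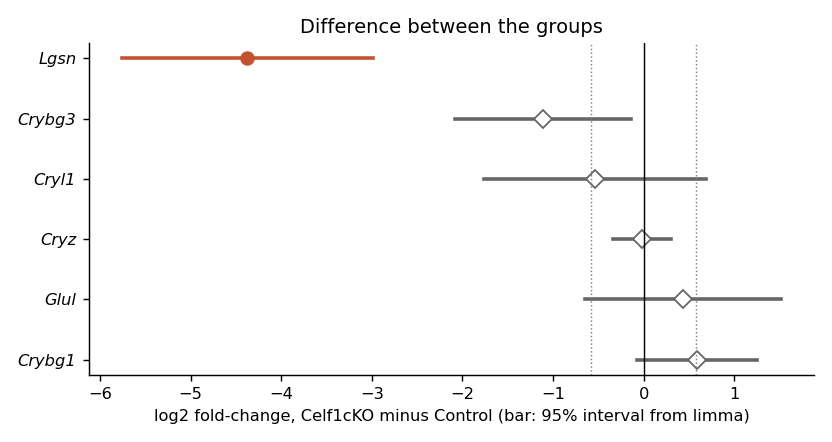
Log2 fold-change of each member, Celf1cKO minus Control (x axis), with its 95% interval from limma (bars), 3 libraries in each group. The dotted lines mark 0.58 in either direction. The intervals of Lgsn, from -5.76 to -2.99, and of Crybg3, from -2.09 to -0.14, lie below 0, and those of the other 4 members include 0.

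Several members share exonic bases with a gene on the opposite strand. The strand setting of the authors' counting was not given in the sources used here, so reads in the shared bases could not be assigned with certainty. Crybg3 shares 1185 bases with Riox2 (log2 fold-change -0.17), Cryz shares 252 with Tyw3 (-0.31), Crybg1 shares 122 with Rtn4ip1 (0.37), and Glul shares 116 with Teddm2 (0.61), which had between 4 and 18 reads. None of these neighbours was called. Crybg1 also shares 546 bases with the pseudogene Gm10812, to which its transcript is 99.6% identical over 548 bases, and which was not analysed here. Lgsn shares 280 bases with 4931428L18Rik, which was not analysed here. Glul also resembles processed pseudogenes, AC134576.3 at 93.0% identity over 1122 bases and Glns-ps1 at 96.8% over 1126 bases, and of these AC134576.3 had between 5 and 22 reads. The Glul level is uncertain to the extent that reads of its transcript match these copies equally well.

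Levels of different genes were compared in RPKM, reads scaled for exon length and for library size. In Control lenses Lgsn was the most abundant member at 27.5 ± 2.99 (SD, n = 3), followed by Glul at 7.79 ± 4.52 and Cryz at 4.70 ± 0.64, whose ranges overlapped. Below these came Crybg3 at 0.874 ± 0.133, then Crybg1 at 0.316 ± 0.086 and Cryl1 at 0.294 ± 0.135, which also overlapped. In Celf1cKO lenses the per-length level of Lgsn was 1.78 ± 1.79, below every library of Glul (9.75 ± 3.90) and of Cryz (4.63 ± 0.48) and above every library of Crybg1 (0.478 ± 0.113). The ranges of Crybg1 and Crybg3 (0.451 ± 0.248) overlapped in Celf1cKO, as did those of Crybg3 and Cryl1 (0.204 ± 0.104). By its mean, Lgsn was thus first of 6 in Control and the third in Celf1cKO, where its range over libraries, from 0.648 to 3.85, overlapped that of Crybg3, from 0.199 to 0.694.

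The order in Control depends on the length used. The exons of Cryz span 6195 bases in all annotated transcripts together but only 993 coding bases. Per kilobase of coding length, Lgsn was at 31.5 ± 3.43, Cryz at 29.3 ± 3.98 and Glul at 23.1 ± 13.4 in Control (SD, n = 3 each), and the ranges of neighbours in this order overlapped. In Celf1cKO the per-coding-length level of Lgsn, 2.05 ± 2.05, was below every library of Cryz, which ranged from 25.5 to 31.0, and its range overlapped that of Crybg3.

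**Figure D4:**
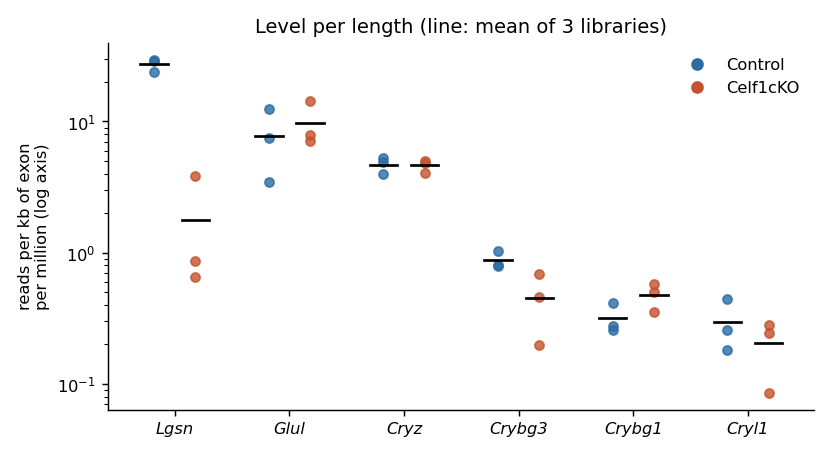
Level of each member per length, in RPKM (y axis, log scale), with genes ordered by their Control mean (x axis). Points are libraries, colours are groups and lines are means of 3 libraries. Lgsn falls from 27.5 in Control to 1.78 in Celf1cKO, while Cryz is at 4.70 and 4.63.

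Lists of genes related to the members by function were examined around them. These lists together held 103 genes in the table, of which 18 were called, and 10 of those were conventional crystallins. Without the conventional crystallins, 8 of 87 genes (9.20%) were called, near the 7.39% of all genes. Over all genes, 4.77% were called higher and 2.63% lower. Conventional crystallins were above the lower share, with 10 of 16 called lower. Every other functional list held at most 3 called genes, so its share rests on few genes. Leaving out Control library 2 or Celf1cKO library 3 left none of the 18 called, and in these fits only 1 gene in the whole table was called.

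Genes around Glul and Lgsn mostly did not pass the test. Of 21 glutamine and glutamate enzymes, 1 was called higher and none lower, with a median log2 fold-change of 0.24. The called gene was Psat1, at 6.82 ± 0.25 log2 CPM in Control and 7.75 ± 0.48 in Celf1cKO (log2 fold-change 0.93, limma adjusted p = 0.0473), which uses glutamate in serine synthesis. Of 13 transporters of glutamine, glutamate and related amino acids, 1 was called higher and none lower, with a median of -0.24. The called gene was Slc1a4, at 5.33 ± 0.36 and 6.60 ± 0.58 log2 CPM (log2 fold-change 1.27, limma adjusted p = 0.0383), which carries mainly alanine, serine and cysteine. Slc38a3, a glutamine transporter also listed among the epithelial markers, was at 6.33 ± 0.09 and 5.01 ± 1.05 log2 CPM and did not pass (limma, adjusted p = 0.102). It was among 4 of 13 transporters with all Celf1cKO libraries below all Control libraries, as for 17.0% of all genes. None of the 4 was called. The others, named after their values were seen, were Slc38a5 (log2 fold-change -1.47), Slc7a11 (-1.02) and Slc1a2 (-0.85). The mean level of Slc1a2 was below 1 log2 CPM in both groups. For Slc1a4 alone of the 13, all Celf1cKO libraries lay above all Control libraries, as for 19.5% of all genes. Psat1 and Slc1a4 each missed the adjusted p threshold in 5 of the 6 fits that left out a library.

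Around Cryz, 13 quinone and alkenal reductases were in the table, of which 3 were called higher and none lower, with a median log2 fold-change of 0.32. They were Vat1l (log2 fold-change 1.46, limma adjusted p = 0.00888), Vat1 (1.26, 0.0198) and Nqo2 (0.75, 0.0343). With a library left out, the adjusted p missed the threshold in 2 of 6 fits for Vat1l, 4 for Vat1 and 5 for Nqo2. Vat1 and Vat1l are relatives of Cryz in the same reductase family, and Nqo2 is a quinone reductase of another family. Cryzl2, another relative singled out after its values were seen, was at 3.24, 3.19 and 3.11 log2 CPM in Control and between 3.60 and 3.72 in Celf1cKO. Those groups did not overlap, but the log2 fold-change of 0.48 was below the threshold of 0.58. Fasn, Adh5, Mecr and Ptgr2, the most abundant of the others, had log2 fold-changes of 0.32, 0.05, 0.29 and -0.09.

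Around Cryl1, 1 of 10 genes of the glucuronate and polyol pathways was called lower and none higher, with a median of -0.18. It was Sord, the sorbitol dehydrogenase, at 5.02 ± 0.02 log2 CPM in Control and 4.19 ± 0.27 in Celf1cKO (log2 fold-change -0.83, limma adjusted p = 0.0168). Sord missed the adjusted p threshold in 4 of the 6 fits that left out a library. Akr1b3, the aldose reductase that makes sorbitol, was at 4.55 ± 0.08 and 4.88 ± 0.10 log2 CPM and was not called. Of the genes around Crym, none of 14 of thyroid hormone handling and none of 6 of lysine and ketimine metabolism was called, with median log2 fold-changes of -0.25 and -0.44.

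Of 8 genes that hold enzymes recruited as crystallins in other animals, such as Eno1, Asl and Aldh1a1, and related enzymes, 2 were called higher and none lower, with a median of 0.19. These were the glycolytic enzymes Ldha, at 7.12 ± 0.67 and 8.56 ± 0.36 log2 CPM (log2 fold-change 1.45, limma adjusted p = 0.0343), and Pgk1, at 8.30 ± 0.31 and 9.63 ± 0.13 (1.33, limma adjusted p = 0.00940). Of the 6 fits that left out a library, Ldha missed the adjusted p threshold in 3 and Pgk1 in 2. Gapdh, Aldh1a1, Eno1 and Asl had log2 fold-changes of 0.21, 0.17, 0.24 and -0.05 and did not pass. Of 16 conventional crystallins, 10 were called lower and none higher, with a median of -0.76. The lowest was Crygf at -1.91, so that the log2 fold-change of Lgsn at -4.37 was below that of every conventional crystallin.

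**Figure D5:**
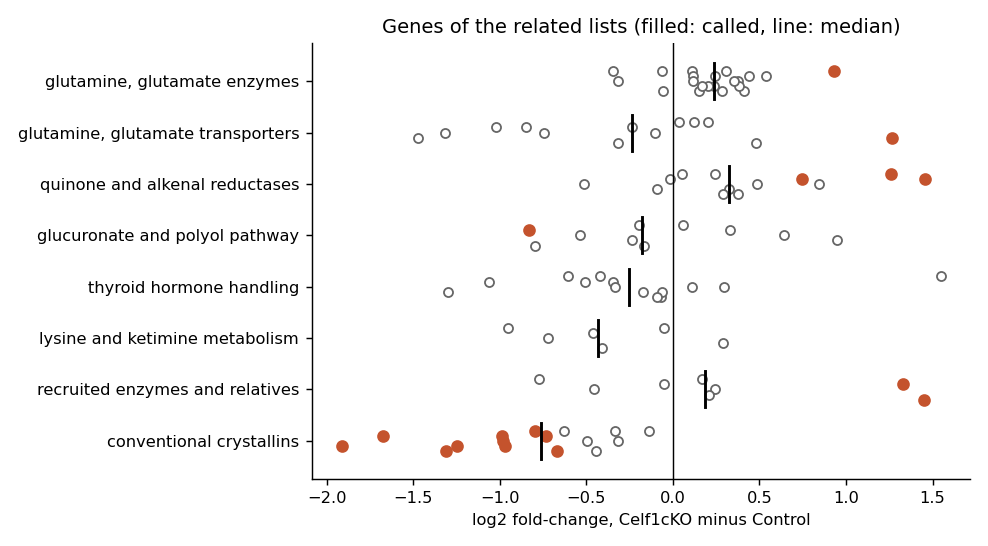
Log2 fold-change, Celf1cKO minus Control (x axis), of each gene of 8 lists around the members (y axis). Filled points were called, open points were not, and the line is the median of the list. In the conventional crystallins 10 of 16 genes are called, all lower, and in the quinone and alkenal reductases 3 of 13 are called, all higher.

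Markers of other tissues that a lens dissection could hold were also summed. Pigmented epithelium markers had 30.4 to 45.8 CPM in Control and 21.3 to 42.5 in Celf1cKO, with 1 of 6 called (Mitf, log2 fold-change -0.72). Mitf was a large part of this sum, at 13.2 to 27.4 CPM over all libraries. Each other marker of this list was highest in library 3 of both groups. None of 5 blood and vessel markers was called, but their sum was 71.4 to 86.7 CPM in Control and 83.7, 20.0 and 40.1 in Celf1cKO libraries 1, 2 and 3. Cornea and skin markers (28.8 to 30.2 and 34.1 to 38.1 CPM, none of 4 called) and macrophage markers (4.17 to 9.60 and 5.27 to 8.06 CPM, none of 6 called) were low in both groups. Most of the cornea and skin sum was Perp, at 21.4 to 33.4 CPM with a log2 fold-change of 0.46, while Krt1 was at -0.94. These sums thus follow single genes as much as tissues. The part of these tissues in the members' values was not tested.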

How the data were processed

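Whole lenses of P0 mice were sequenced in 3 Control and 3 Celf1cKO libraries, each labelled with a group and a replicate number. Per the methods of the study and the submitters' notes, trimmed reads were aligned by the authors to GRCm38.p6 with STAR 2.7.8a, and those with a unique position were assigned to genes by featureCounts 2.0.0, without genes of very low CPM. The authors deposited normalized log2 CPM values with a small prior count for each library. The authors also deposited an average log2 CPM, used for the expression threshold, and their own log2 fold-change, F score, p-value and FDR, which were not used. No other per-library columns were left aside.

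Reads were recovered from the steps of the log2 values, of which 100% were whole within 0.05. The lowest value, -4.41 log2 CPM, marks 0 reads. Differences were tested with limma 3.58.1 in R 4.3.3 (prior variance following expression, 3.40 prior degrees of freedom) and adjusted over 13931 genes. Counting intervals were not computed, since the spread between libraries was the error used. Exact permutation tests used scipy 1.17.1. Gene models were those of GENCODE M21, promoters those of RefSeq, and transcript copies were found with blastn 2.17.0. Figures used Python 3.11.15 and matplotlib 3.10.9. The fit was also run on simulated counts, drawn with a common dispersion for all genes and both groups. That setting is unlike the uneven spread of Lgsn between the groups, so it does not vouch for the calls made here.

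The members and lists were chosen with earlier results of these data known, and some listed genes are not reported here. Named genes were the members, Celf1, the called genes of each list with up to 4 more of the highest level, and the 5 genes most like Lgsn. Cryzl2, Gfap, Slc38a5, Slc7a11, Slc1a2 and the genes that fell further than Lgsn were added after their values were seen. Deviations of same-numbered libraries from their group means had correlations of 0.259, 0.392 and 0.378. Libraries with different numbers were not compared in this way, so these values do not show that the numbers pair the libraries. The study describes no pairing, and the main fit and the permutation tests used none. A block for the replicate number was therefore tried as an alternative. Alternatives were that block, the variance model, the pseudocount, the scaling, voom on recovered reads, adjustment over expressed genes, and each library left out.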

Additional observations from a re-analysis of the deposited data

How the results depend on the processing

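Lgsn stayed lower under every setting tried, from -4.45 with voom to -3.87 with log2(CPM + 1), and was called in all of them except 2 of the 6 fits that leave out a library, over which its log2 fold-change ran from -5.15 to -3.89. The number of members called, 1 of 6, ran from 0 to 2 over those fits. With the replicate block, Lgsn had an adjusted p of 0.0138 in limma, the block called 1279 genes against 1030, and it changed no call of a member. Of fiber markers the block called 5 in place of 6, of conventional crystallins 7 in place of 10, and of retina markers 1 (Gfap) in place of 0. The 18 calls in the functional lists became 8 without a variance trend and 10 after quantile normalization, and ran from 0 to 25 with a library left out. The cause of these changes was not tested. Glul reversed to -0.052 without Control library 2, within a range up to 0.87 with a library left out. Cryz reversed to 0.21 with total-count scaling, which moved the median of all expressed genes by 0.23, and ran from -0.13 to 0.072 with a library left out, reversing to 0.014 without Control library 1, 0.065 without Control library 2 and 0.072 without Celf1cKO library 2. Lgsn minus Glul ran from -5.78 to -4.22. The Control level of Lgsn was 31.5 per coding kilobase against 27.5 per exonic kilobase. Cryl1 ran from -0.82 to -0.067 and Crybg3 from -1.51 to -0.62 with a library left out. TGTNTGT was in 3 members against 1 for TGTTTGT. With 3 libraries a group, the 95% intervals of Glul and Cryl1 cover changes of over 1 log2 unit.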
